A study of Homo sapiens with 4 samples.

Results

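The genes described here carry glucose into the cell and convert it to lactate. The 10 members were the glucose transporters SLC2A1 and SLC2A3, the hexokinases HK1 and HK2, the platelet-type phosphofructokinase PFKP, aldolase C (ALDOC), phosphoglycerate kinase 1 (PGK1), the neuronal-type enolase ENO2, and the lactate dehydrogenase subunits LDHA and LDHB. They were taken by name, and every probe whose RefSeq transcript belonged to a member was kept, which gave 15 probes for the 10 genes. The whole array held 50590 usable probes, and 20501 genes had at least 1 probe. PFKP, HK2, SLC2A3, LDHA and LDHB each had 2 probes, and the other 5 members had 1.

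MCF-10A is an immortalized, non-tumorigenic human mammary epithelial cell line, and RNA labelled as coming from it was hybridised to single-colour Agilent arrays that report brightness in the Cy3 dye. Cells received a stapled-peptide or a non-specific stapled-peptide, which the labels mark as the control, each at 10 µM, and were collected after 24 h or 48 h. A stapled peptide is a short peptide held in a helix by a chemical brace between its side chains. Every culture shared a mammary epithelial basal medium with bovine pituitary extract, hydrocortisone, epidermal growth factor, insulin, antibiotics and cholera toxin, and no untreated culture was hybridised. Insulin and epidermal growth factor were therefore present in all 4 groups. The comparisons asked which genes differed between the peptides at each time, and which differed between the times under each peptide. Each group was 1 array, so no difference had a replicate check, no test was run and no p-value is given. All 4 arrays lay on 1 slide, and the labels do not say which designed peptide each treatment name stands for.

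Glycolysis splits glucose into pyruvate in a chain of cytosolic reactions and yields ATP and NADH. Facilitative transporters of the SLC2A family bring glucose in, hexokinases trap it as glucose 6-phosphate, phosphofructokinase commits it to the pathway, and lactate dehydrogenase turns pyruvate into lactate while restoring NAD+. Most steps are served by several isoforms, which differ in tissue, location in the cell and regulation. The hypoxia-inducible factors (HIF) and MYC are known activators of many of these genes, and proliferating epithelial cells commonly secrete lactate even when oxygen is present.

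Values are log2 signals after quantile normalization, which gives all arrays the same distribution, and a difference is the non-specific stapled-peptide value minus the stapled-peptide value unless stated otherwise. A gene with 2 probes is represented by the brighter one. A difference was counted when it passed 2-fold, which is 1 on the log2 scale, and a probe entered a comparison when the scanner software had marked it as well above background on at least 1 of both arrays. A probe marked on 1 array alone gave a bound. The software's own error of a difference between single spots was 0.204 for most members and covers the reading of a spot, not the variation between cultures.

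The array of the non-specific stapled-peptide at 48 h, called the 48 h non-specific array here, stood apart from the other 3. Over probes well above background on either array, Pearson's r across probes was 0.976 to 0.978 among the other 3 arrays and 0.799 to 0.807 between each of them and that array. It lay outside the range of the other 3 for 92.1% of 14042 genes well above background on all arrays. Markers of the labelled cell type moved with it. All 12 basal mammary epithelial markers were lower there past 2-fold at 48 h, and KRT6A and DSG3 were not well above background. The log2 of the summed linear signal of these 12 was 17.0 on each of the other arrays and 9.45 on this one. KRT5, the basal keratin, read 14.65, 14.54 and 14.59 on the other arrays and 5.02 on this one. Of 12 genes used as markers of a human embryonic kidney line, 8 were well above background there against 4 or 5 on the other arrays. The log2 of the summed linear signal of all 12 was 16.2 against 10.9 to 11.1. UCHL1, 1 of these 12, was not well above background on the other arrays (2.81, 1.96 and 2.38) and read 14.25 on this one. At 48 h, 7 of the 10 with a difference were higher past 2-fold and 1, HOXA10 (-1.13), was lower. Among all genes these shares were 21.2% and 19.8%. L1CAM was well above background on the other arrays only, and LIN28A and PHOX2A were so on none. The log2 of the summed linear signal of 6 pan-epithelial markers was 12.8 against 16.5 to 16.6. That of 8 fibroblast markers was 7.60 against 14.9 to 15.0, and that of 6 leukocyte markers was 8.25 against 10.5 to 10.6. That of 8 luminal mammary markers was 8.92 against 8.81 to 8.93. These marker lists were chosen with earlier results of these data known, so they stand only as values beside the results. On this array the listed markers went against the labelled cell type, MCF-10A, and the source of its RNA was not tested. Every difference at 48 h is between arrays as labelled, and the part of these shifts in it was not tested. In RNA from a whole culture, fewer cells of a type and less RNA per cell cannot be told apart.

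At 48 h the member genes differed between the peptides in both directions, and at 24 h they did not pass 2-fold. Of the 9 members with a difference at 48 h, 5 were lower under the non-specific stapled-peptide (SLC2A1, HK1, PFKP, ALDOC and LDHA), 2 were higher (HK2 and ENO2), and PGK1 and LDHB lay within 2-fold. Over all 17112 genes with a difference, 19.8% were lower and 21.2% were higher past 2-fold. Among the members these shares were 55.6% and 22.2%. The median difference was -1.08 over the members and 0.03 over all genes. SLC2A3 had no usable signal.

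**Figure D1:**
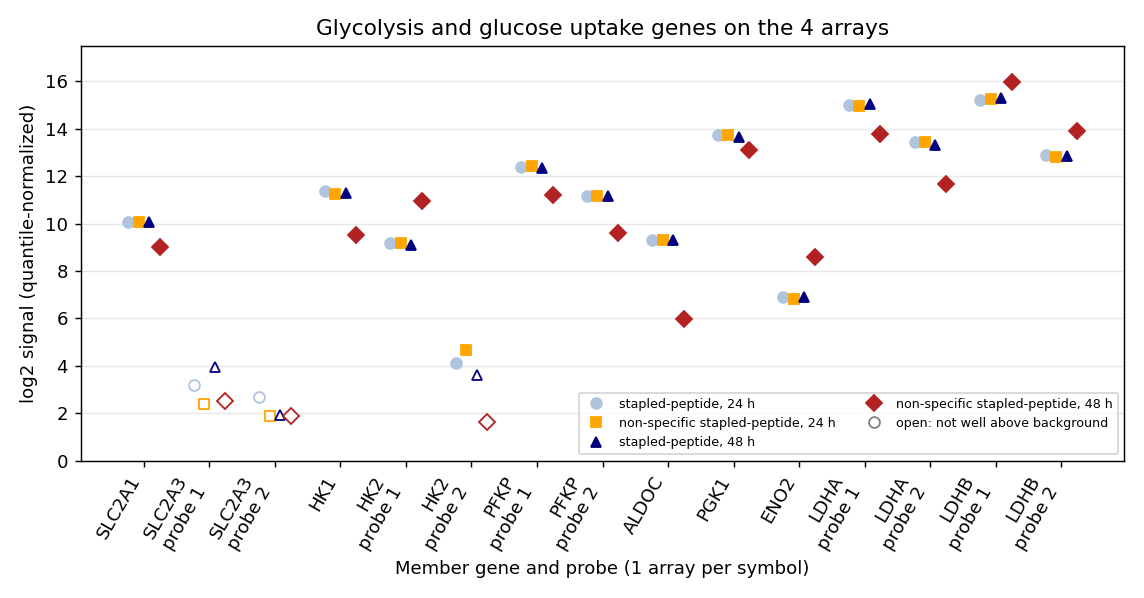
Quantile-normalized log2 signal of each member probe on each of the 4 arrays (1 symbol per array, open where the probe was not well above background). For the 12 probes well above background on every array, the first 3 symbols lie close together and the 48 h non-specific array lies above or below them.

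The uptake step was represented by 1 measurable transporter. SLC2A1, the widely expressed basal glucose transporter GLUT1, read 10.07 and 10.07 at 24 h, stapled-peptide first and non-specific stapled-peptide second as in all such pairs here, then 10.08 and 9.00 at 48 h. The first 3 arrays differed by no more than 0.01 and the 48 h non-specific array was 2.11-fold lower than its counterpart, a log2 difference of -1.08. With no normalization (-0.81) or with the normexp background correction (-0.99), SLC2A1 did not pass 2-fold. SLC2A3, the high-affinity transporter GLUT3, did not rise well above background on any of the arrays with either probe. Its probes read 3.20, 2.40, 3.93 and 2.53, and 2.68, 1.90, 1.93 and 1.88, in the same order of arrays. No difference was computed for SLC2A3, which was not detectable at this signal. It has a near-identical relative, SLC2A14, with which a probe could share signal.

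The hexokinases moved in opposite directions, with HK2 read by its brighter probe. HK1, the broadly expressed hexokinase of most tissues, read 11.36 and 11.23 at 24 h, and 11.29 and 9.54 at 48 h. The last value lay below the other 3, and the 48 h difference was -1.75, or 3.37-fold lower. HK2, the insulin- and HIF-responsive hexokinase that is prominent in muscle and in many tumours, read 9.17 and 9.18 at 24 h, and 9.08 and 10.96 at 48 h. Its last value lay above the other 3, and the 48 h difference was 1.87, or 3.67-fold higher.

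Relative to HK1, HK2 by its brighter probe therefore shifted by 3.63 on the log2 scale between the peptides at 48 h. The scanner error was 0.289, and the change in their ratio was 12.4-fold. At 24 h the same shift was 0.14, within the scanner error. The dimmer HK2 probe read 4.10 and 4.66 at 24 h and 3.59 and 1.63 at 48 h, and it was well above background at 24 h only. It gave no difference between the peptides at 48 h. Between the times under the non-specific stapled-peptide, it fell by at least 1.09 on the log2 scale where the brighter probe differed by 1.78. The HK2 probes thus disagreed in direction, and the rise of HK2 rests on the brighter one.

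PFKP and ALDOC, which act in the middle of the preparatory steps, were both lower. PFKP, an isoform of the enzyme that phosphorylates fructose 6-phosphate, read 12.40 and 12.44 at 24 h, and 12.36 and 11.21 at 48 h, a difference of -1.15 at 48 h (2.21-fold lower). Its second probe, for another transcript, read 11.16 and 11.18 at 24 h, and 11.18 and 9.60 at 48 h, a difference of -1.58 (2.99-fold lower). Both probes placed the 48 h non-specific array below the others. ALDOC, the aldolase best known from brain, read 9.30 and 9.29 at 24 h, and 9.33 and 5.97 at 48 h. Its difference of -3.36, or 10.2-fold lower, was the largest in size among the members. It was also the only member past 4-fold, a size that 8.70% of all genes passed downward and 8.10% upward.

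PGK1, which makes the first ATP of the pathway, was measured on 10 spots per array, of which 9 were kept on the stapled-peptide array at 48 h. It read 13.75 and 13.74 at 24 h, and 13.64 and 13.10 at 48 h. The difference at 48 h was -0.54, or 1.46-fold lower, which did not pass 2-fold. The SD between its spots on 1 array was 0.048 to 0.079, and the scanner error of the difference was 0.066, so the difference exceeded the reading error although it missed the threshold. Spots on an array are technical repeats of the same RNA and say nothing of the spread between cultures. ENO2, the enolase known as a neuronal and neuroendocrine marker, read 6.89 and 6.83 at 24 h, and 6.91 and 8.60 at 48 h. It was higher under the non-specific stapled-peptide at 48 h by 1.70, or 3.24-fold.

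The lactate dehydrogenase subunits also parted. LDHA, whose subunit favours the making of lactate, read 15.01 and 14.95 at 24 h, and 15.03 and 13.77 at 48 h, a difference of -1.26 at 48 h (2.40-fold lower). Its second probe read 13.44 and 13.45 at 24 h, and 13.33 and 11.67 at 48 h, a difference of -1.66 (3.17-fold lower). Both LDHA probes had their lowest value on the 48 h non-specific array.

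LDHB, the subunit that prevails in heart and favours the use of lactate, read 15.23 and 15.28 at 24 h, and 15.31 and 15.97 at 48 h. The difference of 0.66, or 1.58-fold higher, did not pass 2-fold. The second LDHB probe read 12.91 and 12.81 at 24 h, and 12.87 and 13.91 at 48 h, and its difference of 1.04, or 2.05-fold higher, did. Direction was shared by the probes, and the count of LDHB depended on which was read. Relative to LDHA, LDHB shifted by 1.92 on the log2 scale at 48 h, a 3.78-fold change in their ratio with a scanner error of 0.289, against 0.11 at 24 h. LDHA and PGK1 have processed pseudogenes of nearly the same sequence, and whether their probes share signal with these was not examined.

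Counted by probe, 12 member probes gave a difference at 48 h, of which 7 were lower and 3 higher past 2-fold, whereas 18.4% and 19.4% of all 35560 probes were. In PFKP, LDHA and LDHB, the 3 genes where both probes gave a difference, the probes of a gene had the same sign. None of the member spots was saturated. ALDOC was lower than all but 3.83% of genes with a difference, and HK1 was lower than all but 10.5%. LDHA, PFKP and SLC2A1 had 15.7%, 17.4% and 18.3% of genes below them. At the other end, 9.06% of genes were higher than HK2 and 29.7% were higher than LDHB. These places describe 1 pair of arrays on which 41.0% of all genes passed 2-fold.

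At 24 h none of the 9 members passed 2-fold in either direction, where 1.87% of 16228 genes did. The member differences at 24 h ran from -0.13 for HK1 to 0.05 for LDHB, with a median near 0, and each was smaller than the scanner error. Between 24 h and 48 h under the stapled-peptide, again none passed, with 2.06% of 16138 genes past 2-fold. The differences ran from -0.10 for PGK1 to 0.08 for LDHB. PGK1 was the one member whose difference there, on its repeated spots, exceeded its scanner error of 0.066.

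Between the times under the non-specific stapled-peptide, 5 members were lower at 48 h and 2 were higher, where 20.1% and 21.3% of 17297 genes were. This comparison shares the 48 h non-specific array with that between the peptides at 48 h. In this comparison the differences (48 h minus 24 h) were -1.07 for SLC2A1, -1.69 for HK1, 1.78 for HK2, -1.23 for PFKP, -3.32 for ALDOC, -0.64 for PGK1, 1.77 for ENO2, -1.18 for LDHA and 0.69 for LDHB. All 9 measured members had that array outside the range of the other 3, as did 92.1% of genes, so this is not particular to the members. The other 3 arrays spanned 0.01 (SLC2A1) to 0.13 (HK1) for a member. Leaving that array out leaves the 24 h comparison and the stapled-peptide time comparison, and with normalization over the other 3 arrays alone the count past 2-fold was 0 in both.

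**Figure D2:**
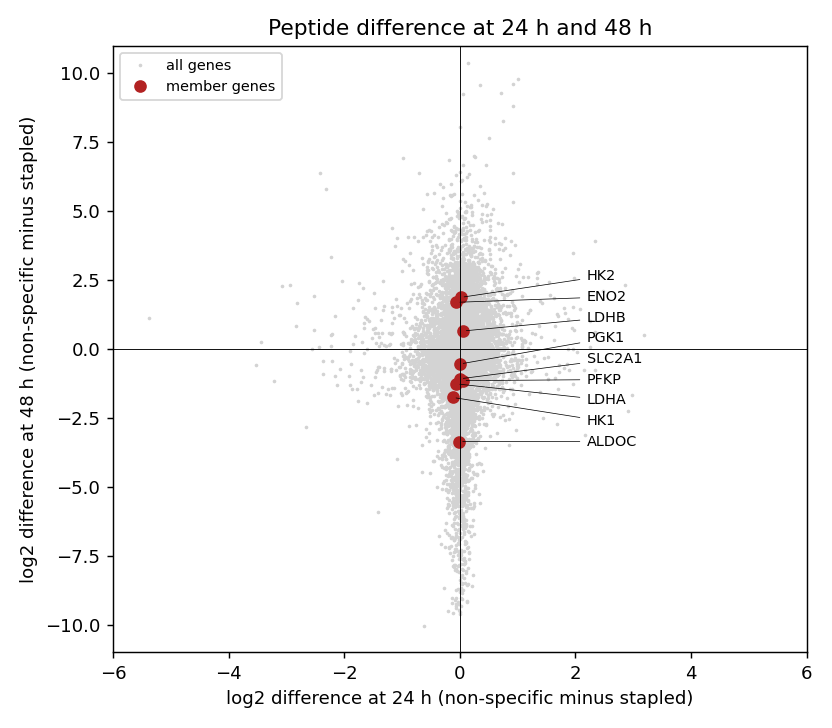
Log2 difference (non-specific stapled-peptide minus stapled-peptide) at 24 h on the horizontal axis against that at 48 h on the vertical axis, for each gene measured at both times (grey) and the 9 measured members (red). The members lie within 0.13 of 0 at 24 h and spread from -3.36 (ALDOC) to 1.87 (HK2) at 48 h.

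The genes whose 4 values ran most like those of a member, after each gene was centred, were found by Euclidean distance over the 4 arrays among 14042 genes. For HK2 they were CDC42EP1 (distance 0.021), PALM (0.031) and ASF1B (0.041). For ALDOC they were NPC2 (0.034), FMNL1 (0.041) and MICOS10-NBL1 (0.045). With 4 arrays, of which 3 were nearly alike, such a distance mostly compares the size of 1 difference.

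Of 20 other glycolytic enzymes with a difference at 48 h, 3 were higher, 3 were lower and 14 lay within 2-fold, with a median of -0.29. Over all genes 21.2% were higher and 19.8% lower, so these enzymes passed 2-fold no more often than genes at large. PKM, the pyruvate kinase of most proliferating cells, read 14.35 and 14.32 at 24 h, and 14.22 and 12.62 at 48 h, a difference of -1.60. GAPDH, often used as a reference gene, read 15.96, 15.95, 15.91 and 15.08 in the same order, and its difference of -0.84 stayed within 2-fold.

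ENO1, the ubiquitous enolase, differed by -0.57 at 48 h, opposite in sign to ENO2. Relative to ENO1, ENO2 shifted by 2.27 on the log2 scale, a 4.83-fold change in their ratio, in a pair chosen after the values were seen. The rise was not particular to ENO2, since ENO3, also named after its values were seen, differed by 1.12. ENO4 had a bound of -0.42. LDHC, the testis form of lactate dehydrogenase, was the highest of the list, with 5.59, 5.46, 5.52 and 9.62 in the order of arrays and a difference of 4.10. BPGM, which makes the red-cell effector 2,3-bisphosphoglycerate, differed by 1.20. HKDC1, a hexokinase relative, differed by -1.22, and LDHD, which acts on D-lactate, by -2.01. TPI1 (0.62) and GPI (0.18) lay within 2-fold. ALDOA had no probe by its accession and was not analysed here.

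**Figure D3:**
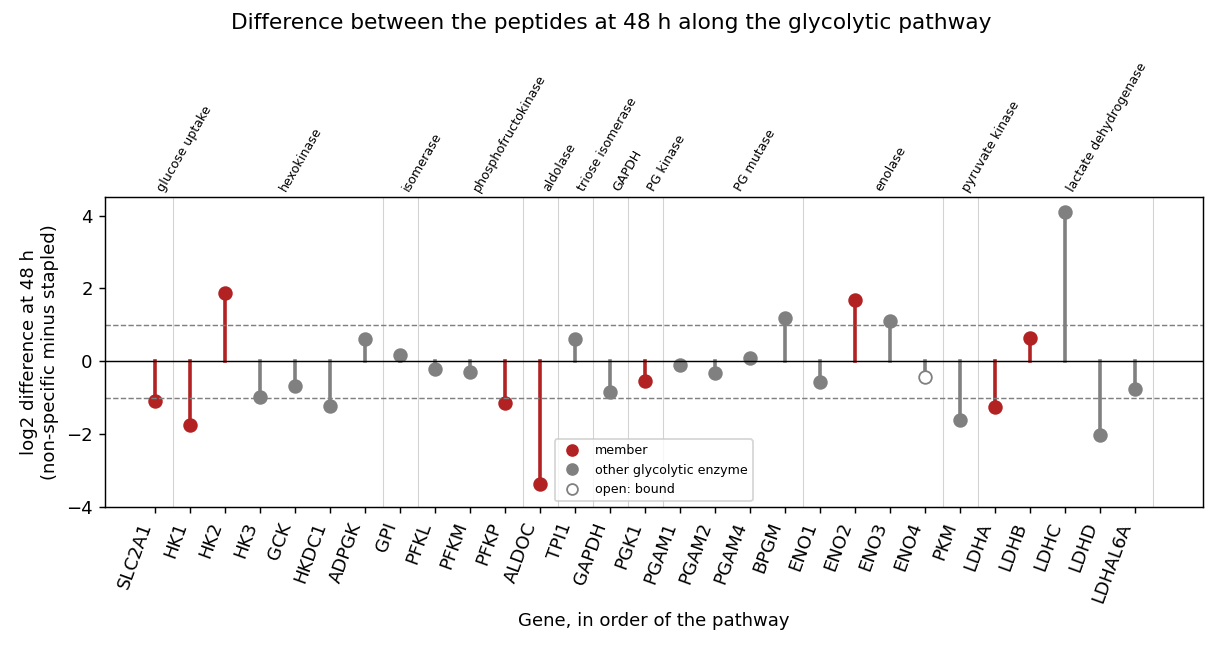
Log2 difference at 48 h (non-specific stapled-peptide minus stapled-peptide) for each glycolytic gene in the order of the pathway, with members in red, other enzymes in grey and dashed lines at 2-fold. Within the hexokinase, enolase and lactate dehydrogenase steps, isoforms lie on both sides of 0, such as HK1 at -1.75 and HK2 at 1.87.

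Among 12 other glucose transporters with a difference at 48 h, 4 were higher and 1 was lower, beside the same shares of all genes. SLC2A8 differed by 1.33. SLC2A10 and SLC2A12, which were well above background on the 48 h non-specific array alone, were higher by at least 3.07 and 1.58 on the log2 scale. SLC2A6 differed by 2.74 with its brighter probe and by -0.74 with the other, so its direction was not settled. SLC2A9, the urate and glucose transporter, was not well above background on that array and had a bound of -3.69.

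Genes that carry or use pyruvate and lactate gave the largest single difference of the lists. SLC16A3, the lactate exporter MCT4, read 15.31 and 15.11 at 24 h, and 15.19 and 5.70 at 48 h, a difference of -9.50. SLC16A1, the lactate transporter MCT1, read 7.81, 7.66, 7.76 and 8.95 in the same order, a difference of 1.19. SLC16A3 was thus lower, as LDHA was, and SLC16A1 was higher, as HK2 and ENO2 were. Of the 20 genes in this list 7 were higher and 4 were lower past 2-fold, where 21.2% and 19.8% of all genes were, with a median of 0.11. The higher ones held PDK1 (1.86), a kinase that inhibits pyruvate dehydrogenase, and DLD (1.56), a subunit of that complex. PDK4, another such kinase, was lower (-2.05), as was the transporter SLC16A7 (a bound of -3.09). The remaining higher ones, named after their values were seen, were the pyruvate carrier subunit MPC1 (1.42, or 0.87 with its dimmer probe), PDK3 (1.34) and the pyruvate dehydrogenase subunits PDHA1 (1.08) and DLAT (1.02). The remaining lower one, also named after its value was seen, was the pyruvate carboxylase PC (-1.11).

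Regulators of HIF and MYC were found in both directions. HIF1A, the oxygen-regulated subunit of HIF-1, differed by -1.54 at 48 h, EPAS1, its relative in HIF-2, by -2.57, and ARNT, the partner of both, by -1.04. VHL and EGLN3, which act in the destruction of HIF subunits, were higher by 2.57 and by at least 1.58. ARNT2, a relative of ARNT, was higher by 1.58 with its brighter probe. The dimmer ARNT2 probe was not well above background on any array and gave no difference. MYC read 12.43 and 12.54 at 24 h, and 12.52 and 12.81 at 48 h, a difference of 0.29. Over 13 genes of this list 3 were higher and 3 lower past 2-fold, with a median of -0.17. These counts lay near the shares of all genes, 21.2% and 19.8%. Dimmer probes, named after their values were seen, passed 2-fold where the brighter ones did not in MYCL (at least 4.10 higher), MAX (1.07) and MXI1 (-1.33 and -1.72).

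Of 17 HIF target genes outside glycolysis, 9 were lower past 2-fold by the brighter probe and none was higher, with a median of -1.02. Over all genes 19.8% were lower and 21.2% were higher. VEGFA, named after its values were seen, differed by 0.41 with its brighter probe and by 1.78 with the other, so the count of 0 higher depended on the probe read. The lower ones included the lipase inhibitor ANGPTL4 (-6.72), the collagen cross-linker LOX (-3.77), the carbonic anhydrase CA12 (-2.66), the collagen prolyl hydroxylase subunit P4HA2 (-2.15) and NDRG1 (-2.01). P4HA1 (-1.02) and DDIT4 (-1.03), named after their values were seen, lay just past the threshold. On the higher side STC2 (0.93) lay just short of it. HK2, itself a HIF target and read by its brighter probe, and ENO2 were higher at 48 h where the 9 genes were lower.

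**Figure D4:**
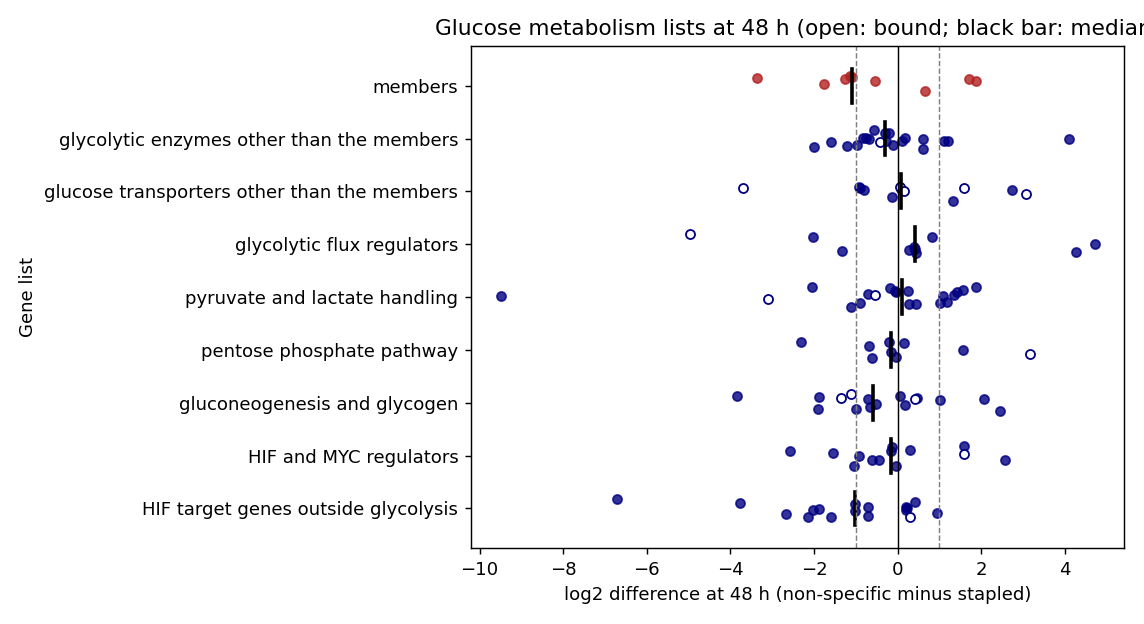
Log2 difference at 48 h (non-specific stapled-peptide minus stapled-peptide) of every gene with a difference in the members and 8 further lists, with black bars at the medians, open symbols for bounds and dashed lines at 2-fold. The medians lie between -1.08 for the members and 0.41 for the flux regulators.

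The promoters of members were read for the short cores that HIF (ACGTG or GCGTG) and MYC (CACGTG, which contains ACGTG on both strands) are known to bind, on both strands, in the 250 bases before each RefSeq transcript start of GRCh38.p14. The table held 20 starts for 9 members, and none for SLC2A3. At least 1 HIF core occurred in 10 of the 20 windows (50%), against 43.2% of 35116 windows of all genes. ACGTG alone occurred in 18.5% of all windows, GCGTG in 32.2% and CACGTG in 6.34%. By gene, 7 of the 9 members had a core at some start, and SLC2A1 and LDHB had none, beside 47.4% of 27305 genes with a core at some start. Members had up to 7 starts, and HK1 had a core at 1 of its 7. Of the 5 members with a single start 3 had a core, beside 42.2% of 22114 such genes. CACGTG occurred in HK2, ALDOC and LDHA, of which HK2, by its brighter probe, was higher and the others lower at 48 h. The 6.34% above is a share of windows, and the share of genes with CACGTG at some start was not computed.

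Windows are shown for 3 members that have a single start: ALDOC, the member with the largest difference, downward, and 5 cores, ENO2, which was higher and had 1 core, and LDHB, which was higher within 2-fold and had none. They are written 5′ to 3′ on the strand of the gene, ALDOC at chr17:28576896-28577145 (minus strand), ENO2 at chr12:6914330-6914579 (plus strand) and LDHB at chr12:21657843-21658092 (minus strand). Each ends at the base before the transcript start, and capitals mark the cores on either strand.
ALDOC: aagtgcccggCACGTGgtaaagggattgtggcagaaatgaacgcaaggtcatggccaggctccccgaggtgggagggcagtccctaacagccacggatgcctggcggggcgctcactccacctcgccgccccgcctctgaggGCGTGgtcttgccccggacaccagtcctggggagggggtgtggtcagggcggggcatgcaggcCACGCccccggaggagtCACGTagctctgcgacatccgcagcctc
ENO2: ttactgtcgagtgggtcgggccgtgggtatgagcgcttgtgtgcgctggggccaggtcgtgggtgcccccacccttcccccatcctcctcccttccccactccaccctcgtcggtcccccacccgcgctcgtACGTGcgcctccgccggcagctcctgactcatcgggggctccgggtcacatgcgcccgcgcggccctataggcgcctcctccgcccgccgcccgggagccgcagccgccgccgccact
LDHB: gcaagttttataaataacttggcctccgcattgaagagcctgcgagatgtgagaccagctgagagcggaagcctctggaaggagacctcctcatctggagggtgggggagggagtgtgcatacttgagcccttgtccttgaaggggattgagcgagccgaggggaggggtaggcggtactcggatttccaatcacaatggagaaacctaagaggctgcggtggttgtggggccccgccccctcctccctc
In ALDOC the distal CACGTG counts as 2 overlapping cores, 1 on each strand. A match is a description of letters, and its absence in LDHB and SLC2A1 speaks of these windows only.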

How the data were processed

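Total RNA of 4 cultures labelled MCF-10A was hybridised to 1 Agilent array each. The spot intensity in the deposited files was extracted by the authors with Feature Extraction (version 10.7.1.1 per the file headers, 9.5 per the labels) as background-subtracted linear signal, not normalized between arrays. The authors' combined table holds the mean over a probe's spots, within 0.1% for 98.6% to 98.7% of 50599 probes (median log2 4.61 to 5.01 per array). The probe grid was built on hg19.

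Control and outlier spots were dropped, log2 signals were averaged per probe, and quantile normalization over all 4 arrays followed the study's methods. Dim probes entered as bounds, and a floor of 1 applied. Quantile normalization hides a change in total signal. Symbols came from RefSeq accessions (28168 probes, 55.7%). The number of arrays limits precision. Of the spots, 62.5% to 65.7% were well above background. No test was run, since each group was 1 array. An additive fit of peptide and time would leave 1 residual degree of freedom and was not made. Python 3.11.15, numpy 2.4.6, pandas 2.3.3, scipy 1.17.1, matplotlib 3.10.9 and limma 3.58.1 (normexp, R 4.3.3) were used. The steps were first run on simulated arrays in which few probes were shifted and all counted as well above background. That run did not cover bounds or shifts as widespread as those at 48 h. Genes named were all members, at most the 5 largest differences past 2-fold of each list, a few enzymes, carriers and regulators whatever their values, and the 3 nearest genes by distance. The members, lists and rules were chosen with earlier results of these data known. Results of 1 list, on the pentose phosphate pathway, are not reported here beyond their plotted differences.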

Additional observations from a re-analysis of the deposited data

How the results depend on the processing

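No paired analysis was possible because the labels carry no replicate numbers and each value comes from no test. Leaving out a replicate was likewise not possible. At 48 h the 2 higher and 5 lower members became 0 and 1 with a threshold of 4-fold, and the 5 lower became 3 with no normalization between arrays, where SLC2A1 (-0.81) and PFKP (-0.97) no longer passed 2-fold, and 4 with normexp, where SLC2A1 (-0.99) did not. Between the times under the non-specific stapled-peptide, the 2 higher and 5 lower became 0 and 1 at 4-fold, and the 2 higher became 1 with probes of a gene averaged, since the HK2 probes disagreed. The 5 lower there became 4 with no normalization and with normexp. The counts of 0 at 24 h and under the stapled-peptide, and the median at 48 h, kept their value or stayed within the spread in every alternative run. Of 72 member differences at 48 h over 8 alternatives, 70 moved by less than 0.336, the SD of gene differences between the peptides at 24 h, and none changed sign. The other 2 came from the normexp correction, which gave -2.51 for ALDOC and 1.23 for ENO2. Many of the 72 could not move. No member difference at 48 h was a bound, so dropping bounds or asking for both arrays well above background changed nothing. The authors' combined table, which holds the same spots, returned the same values. Averaging the probes of a gene moved only PFKP, LDHA and LDHB. With no normalization the median of all genes at 48 h was 0.26, and the share of higher among all genes past 2-fold went from 51.7% to 62.6%. Under the stapled-peptide that share went from 44.9% to 15.5%, or to 30.3% with scaling to the 75th percentile. Normalization without the 48 h non-specific array was added after seeing the data. Names from the gene name column were not run, because that column was not in the tables used here. Signal near background limits SLC2A3 and the second HK2 probe.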

Other observations

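Neighbouring branches of glucose use also differed at 48 h (non-specific stapled-peptide minus stapled-peptide, log2). Of 16 gluconeogenesis and glycogen genes 3 were higher and 5 lower, where 21.2% and 19.8% of all genes were, with a median of -0.60. The glycogen phosphorylases PYGB and PYGL, which release glucose units from glycogen, differed by -3.85 and 2.06. The branching enzyme GBE1 differed by -1.91 and UGP2, which makes UDP-glucose, by -1.87. PCK2, the mitochondrial enzyme that makes phosphoenolpyruvate, differed by 2.45, or by 0.68 with its dimmer probe.

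Among 10 genes that regulate glycolytic flux 2 were higher and 3 lower, where 21.2% and 19.8% of all genes were, with a median of 0.41. The dimmer probe of PFKFB2, named after its values were seen, differed by 1.57 where the brighter one differed by 0.40. The arrestin relatives TXNIP and ARRDC4, both known to restrain glucose uptake, differed by -2.02 and 4.27. MLXIPL, a glucose-sensing transcription factor, differed by 4.72. PFKFB4, which sets the level of a phosphofructokinase activator, differed by -1.32, and the glycogen-targeting subunit PPP1R3C had a bound of -4.97. At 24 h none of the genes in either list passed 2-fold, where 1.87% of all genes did.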
